A study of Mus musculus with 6 samples.

Results

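Apolipoproteins and lipoprotein receptors, 9 genes in all, were followed in NOR-10, a fibroblast line from mouse skeletal muscle, among the 34745 genes of the deposited table. The 9 genes were Apob, Apoe, Apod, Apoc1 and Clu, which encode apolipoproteins, Vldlr, Lrp1 and Lrp8, which encode receptors of the LDL receptor family, and Abca1, which encodes a lipid exporter. They were selected by name, with Apob chosen because it was among the largest falls of the comparison described here, so their differences between the groups are descriptions and carry no p-value. The Con group was treated with PBS and the Dgal group, called D-gal below, with D-gal (D-galactose) at 20 mg/mL for 3 days, a treatment the study used to induce senescence. Each group had 3 libraries of total RNA. All cells were of the 1 line and grew in medium with 10% fetal bovine serum. The labels give no age, and do not say whether the replicates were separate cultures, so spreads and p-values describe these libraries only.

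Apolipoproteins are the proteins that coat lipoproteins, the particles that carry cholesterol and triglycerides between cells. ApoB forms the scaffold of the particles that liver and intestine secrete, while ApoE and ApoC1 are exchanged between particles. ApoD and clusterin (ApoJ, from Clu) are secreted proteins made by many tissues, fibroblasts among them. Receptors of the LDL receptor family bind ApoE or ApoB on a particle and take it up, while ABCA1 moves cholesterol and phospholipid out of the cell onto lipid-poor apolipoproteins, the first step in making HDL.

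Total counts were 16876087 to 20830349 in the Con group and 13759108 to 15157064 in the D-gal group. Mitochondrially encoded genes took 4.26% to 4.44% of each Con library and 4.87% to 4.98% of each D-gal library. Of 11 fibroblast markers, 9 had enough counts to be tested, whereas Lum had at most 1 count and Fap at most 5 counts in a library. The muscle cell regulators Myod1, Myf5 and Pax7 and the adipocyte genes Adipoq, Cidec, Lep and Cfd were at 0 in every library. Other markers of these cell types had counts. Des had 56, 67 and 51 counts in Con and 26, 27 and 26 in D-gal. Acta1 had 43, 50 and 46 in Con and 27, 29 and 28 in D-gal. Fabp4 had 32, 26 and 16 in Con and 18, 22 and 28 in D-gal. Retn had 10, 10 and 5 in Con and 0, 2 and 0 in D-gal. Con replicate 1 stood apart in macrophage genes, with 627 counts of Lyz2 (lysozyme) against 114 and 86 in the other Con libraries and 46 to 70 in D-gal. The summed FPKM (fragments scaled by gene length and library total) of the 8 macrophage markers was 5.76 to 32.8 in Con and 4.96 to 5.54 in D-gal, and none of the 8 was at 0 in every library. Without Con replicate 1, the log2 fold change was -2.16 for Apob, 0.20 for Apoe, -0.53 for Apod, 0.06 for Clu, -0.62 for Vldlr, -0.28 for Lrp1, -0.11 for Lrp8 and 0.23 for Abca1. In these bulk samples, fewer cells of a type and less RNA per cell cannot be told apart.

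Counts were normalized for library size with edgeR's TMM method, and 13407 genes passed its filter on low counts and were tested. Of the 9 genes, 8 were among them, and Apoc1 was not. In the quasi-likelihood test of edgeR, adjusted by the Benjamini-Hochberg method, 3 of the 8 (Apob, Vldlr and Lrp1) were lower in D-gal at an adjusted p-value under 0.05, where 17.8% of all genes tested were lower. The call of Vldlr was lost in 6 of 14 alternatives. Only 1 of the 8 (Abca1) was higher, where 16.9% of all genes tested were higher. The other 4 (Apoe, Apod, Clu and Lrp8) were not called, while 34.8% of all genes tested were called in either direction. With a log2 fold change of 1 or more in either direction required as well, only Apob among the 8 was called, against 4.21% of all genes tested (1.83% lower and 2.37% higher). The normalized counts of the groups did not overlap in 5 of the 8 (Apob, Apod, Vldlr, Lrp1 and Abca1), and in 49.1% of all genes tested. The median log2 fold change of the 8 was -0.19, beside 0.00 (0.0036) for all genes. Since the genes were chosen on this contrast, nothing is read from these shares.

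**Figure D1:**
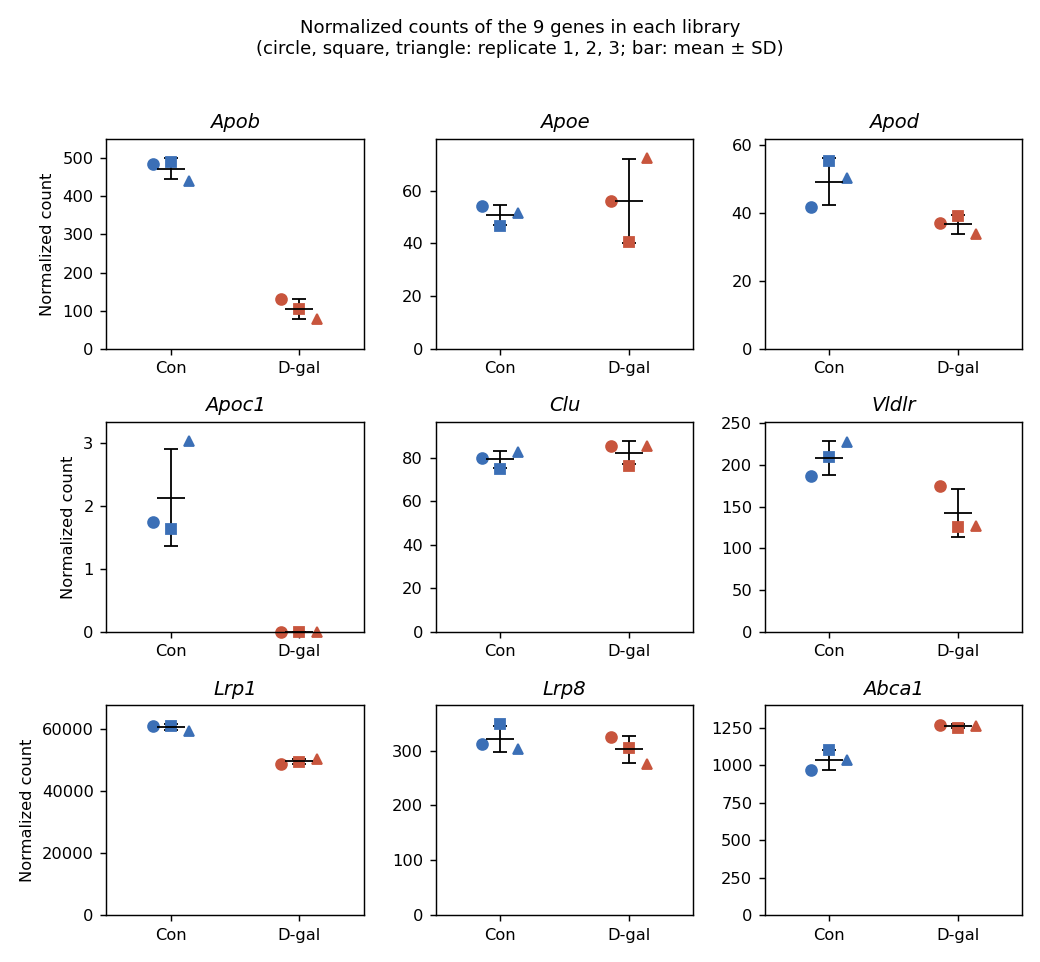
Normalized counts (vertical axes, starting at 0) of the 9 genes in the 3 Con and 3 D-gal libraries, with a circle, square and triangle for replicates 1, 2 and 3 and a bar for the mean ± SD. The groups are separate for Apob, Apod, Vldlr, Lrp1 and Abca1 among the 8 genes tested and overlap for Apoe, Clu and Lrp8, and Apoc1 is at 0 in every D-gal library.

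Apob (ENSMUSG00000020609) showed the largest difference of the 8 tested. Its counts were 557, 601 and 436 in Con and 116, 95 and 64 in D-gal. All 3 D-gal libraries lay far below all 3 Con libraries, and the lowest Con value exceeded the highest D-gal value by a wide margin. Normalized, these were 472 ± 27.6 in Con and 103.7 ± 26.5 in D-gal (SD, n = 3), a level 4.54-fold lower under D-gal. The log2 fold change was -2.18 (SE 0.16), larger in size than that of 99.4% of the genes tested, and it ranked 29 among all falls in size and 26 among the called ones. With each library left out in turn it stayed between -2.38 and -2.01, and with all libraries thinned to the smallest total it was -2.18. The coefficient of variation was 5.85% among Con libraries and 25.6% among D-gal libraries, where counting error alone would give 4.34% and 10.4%. D-gal replicate 3 was the lowest of its group after normalization, at 77.1, and D-gal replicate 1 the highest, at 130.2.

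Per length, the Apob mRNA was scarce in both groups. Its deposited FPKM was 1.62, 1.63 and 1.46 in Con and 0.442, 0.355 and 0.263 in D-gal. The mean level over the 6 libraries was above that of only 18.3% of the genes tested. The gene lies on the plus strand of chromosome 12 (7977648 to 8016835 on GRCm38) and has 29 exon blocks with 13934 bases. The exons of the 9 genes are free of overlap with other annotated genes on both strands, and none of the sequence words of 31 bases in Apob occur in another gene.

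ApoB is known as a product of hepatocytes and enterocytes, so their defining markers were read in the same libraries. None of the 10 hepatocyte markers in the table reached the filter, the highest had 8 counts in a library, and Ttr, Fgb, Serpina1c, Cyp2e1 and G6pc were at 0 in all 6. Alb (albumin) had 0, 3 and 7 counts in Con and 2, 0 and 2 in D-gal. The summed FPKM of the hepatocyte markers was 0.08 to 0.377 in Con and 0.229 to 0.381 in D-gal. Of the 5 enterocyte markers, Fabp1, Fabp2 and Apoa4 were at 0 in all libraries, and the highest count of the others was 5. The summed FPKM of the fibroblast markers was lower in D-gal (974 to 1330) than in Con (1380 to 1450). At an adjusted p-value under 0.05 in edgeR, 6 of the 9 tested were lower and 1 higher. These are 66.7% and 11.1%, beside 17.8% and 16.9% of all genes tested. The log2 fold change was -1.42 for Dcn, -1.18 for Col3a1, -0.97 for Col1a2, -0.71 for Col1a1, -0.66 for Thy1 and -0.50 for Vim. For Pdgfra it was -0.08, for S100a4 -0.04 and for Pdgfrb 0.19. The part of these markers in the difference of Apob was not tested.

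The genes with which ApoB particles are made were partly present. Mttp, which loads lipid onto nascent ApoB, had 87, 142 and 62 counts in Con and 111, 109 and 116 in D-gal, a log2 fold change of 0.58 (SE 0.22, adjusted p = 0.0755 in edgeR). After normalization Mttp was at 75.8, 115.9 and 62.6 in Con and from 119 to 139.8 in D-gal, so Con replicate 2 lay just below the D-gal libraries. Apobec1, the enzyme that edits the Apob mRNA, had 129, 131 and 89 counts in Con and 102, 121 and 125 in D-gal, a log2 fold change of 0.36 (SE 0.15, adjusted p = 0.0963 in edgeR). A1cf, a cofactor of that editing in liver, was at 0 counts in all libraries. Rbm47, another editing cofactor, fell by 0.52 on the log2 scale (SE 0.12, adjusted p = 0.0105 in edgeR).

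Promoters are shown for Apob and Abca1, the tested genes of the 9 with the largest called difference in each direction. The sequences are RefSeq's (GRCm38.p6), on the gene's strand from 5′ to 3′, and end before the start of the gene in the deposited table. Capitals mark the motifs found, and 32851 promoter windows were searched on both strands for the shares given.
Apob promoter, chr12:7977427-7977647: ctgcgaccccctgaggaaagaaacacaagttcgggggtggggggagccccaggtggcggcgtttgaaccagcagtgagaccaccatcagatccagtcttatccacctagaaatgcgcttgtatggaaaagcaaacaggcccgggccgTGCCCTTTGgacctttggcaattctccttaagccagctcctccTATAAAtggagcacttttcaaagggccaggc
Abca1 promoter, chr4:53159896-53160145: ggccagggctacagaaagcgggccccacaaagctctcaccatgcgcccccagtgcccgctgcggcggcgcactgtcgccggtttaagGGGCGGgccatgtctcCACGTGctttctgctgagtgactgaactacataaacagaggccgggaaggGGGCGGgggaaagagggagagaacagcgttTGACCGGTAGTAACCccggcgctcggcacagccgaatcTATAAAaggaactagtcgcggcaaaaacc
The capitals in the Apob promoter mark TGCCCTTTG, 103 to 95 bases before the RefSeq start, and TATAAA, 60 to 55 bases before it. The deposited table starts Apob at 7977648, upstream of the RefSeq start at 7977677, so both motifs lie closer to the deposited start. TGCCCTTTG reads CAAAGGNCA on the other strand, part of the DR1 element that nuclear receptors of liver such as HNF4 bind. Of all promoters, 1.93% hold it. TATAAA occurs in 13.6% of promoters. The capitals in the Abca1 promoter mark, in order, GGGCGG (35.7% of promoters), CACGTG (7.15%), GGGCGG again, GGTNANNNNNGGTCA read on the other strand, a relaxed form of the DR4 element that LXR and RXR bind (0.207%), and TATAAA 29 to 24 bases before the start. The DR1 part and the DR4 pattern were chosen with these sequences in view, no matches overlap in these 2 promoters, and the matches are descriptions of letters only. In the windows of the other genes, GGGCGG was found in Lrp1 and Vldlr, CCAAT (37.4% of promoters) in Vldlr and TATAAA in Apoe, where 2 matches on opposite strands overlap. The matches of Vldlr and Apoe belong to a further RefSeq start inside each gene (27217020 and 19698621). None was found in the window of the first start of these genes. TCACCCCAC, a sterol element (0.551% of promoters), was in none of the windows read, which belong to 7 of the 9 genes (Apoc1 and Clu had no entry).

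Apoe (ENSMUSG00000002985, minus strand of chromosome 7, 19696109 to 19699166), the main ligand of the LDL receptor family on remnant particles, was low and did not pass the threshold. Its counts were 62, 57 and 51 in Con and 50, 37 and 60 in D-gal. Normalized values were 50.7 ± 3.83 and 56.3 ± 15.9 (SD, n = 3), and the D-gal libraries, from 40.4 to 72.3, enclosed all Con libraries. The log2 fold change was 0.15 (SE 0.23), and it ran from -0.07 to 0.34 with each library left out, so these libraries give no direction for Apoe. Macrophages are a known source of ApoE. In Con replicate 1, where Lyz2 was high, Apoe had 54.0 normalized counts, the highest of the Con libraries, beside 46.5 and 51.5 in the others, and the part of macrophage genes in these values was not tested.

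Apoc1 (ENSMUSG00000040564), which lies next to Apoe on the same strand (19689484 to 19692658), was near the limit of detection. It had 2, 2 and 3 counts in the Con libraries and 0 in every D-gal library. The 7 counts among 57169288 in Con correspond to 0.122 CPM (counts scaled by the library total), with an exact Poisson 95% interval of 0.0492 to 0.252. The 0 counts among 43765317 in D-gal allow up to 3 counts, or 0.0685 CPM. The interval covers counting error only. The interval and the limit are of different kinds, and comparing them is not a test of the difference. The gene was not tested, so no difference or fold is given.

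Apod (ENSMUSG00000022548, minus strand of chromosome 16, 31296192 to 31314808), a lipocalin that carries small lipids and is expressed by many fibroblasts, had 48, 68 and 50 counts in Con and 33, 36 and 28 in D-gal. Normalized values were 49.3 ± 6.91 in Con and 36.7 ± 2.80 in D-gal (SD, n = 3). The highest D-gal value, 39.3, was just below the lowest Con value, 41.8, so the groups were separate by a narrow gap. D-gal differed from Con by -0.42 on the log2 scale (SE 0.19), from -0.53 to -0.32 with each library left out, and it was not called. Of the 9 genes, Apod shared the most sequence with other genes, at 1.67% of its words of 31 bases.

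Clu (ENSMUSG00000022037, plus strand of chromosome 14, 65968483 to 65981548) encodes clusterin, a secreted chaperone found on HDL. Its counts were 92, 92 and 82 in Con and 76, 70 and 71 in D-gal. Normalized values were 79.4 ± 3.94 in Con and 82.4 ± 5.19 in D-gal (SD, n = 3), and the groups overlapped. Its log2 fold change was 0.06 (SE 0.13), and with thinned counts it was -0.14, so no direction can be given. The spread among libraries, 4.96% in Con and 6.29% in D-gal, was below the 10.6% and 11.8% that counting error alone would give.

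Among the receptors, Lrp1 (ENSMUSG00000040249, minus strand of chromosome 10, 127538161 to 127621148, with 88 exon blocks) was by far the most abundant. LRP1 is a large endocytic receptor of fibroblasts that clears ApoE remnants, proteases with their inhibitors, and matrix proteins. Its counts were 69900, 74630 and 58646 in Con and 43378, 45033 and 41763 in D-gal. Lrp1 held between 95.9% and 96.6% of all counts of the 9 genes in a library. It took 0.347% to 0.359% of all counts in the Con libraries and 0.292% to 0.304% in the D-gal libraries, with no overlap. Normalized values were 60345 ± 970.2 in Con and 49393 ± 842.3 in D-gal (SD, n = 3), 1.22-fold lower under D-gal. The log2 fold change of -0.29 was small but precise (SE 0.02), and stayed between -0.30 and -0.28 with each library left out. The coefficient of variation was 1.61% in Con and 1.71% in D-gal, where counting error alone would give 0.384% and 0.480%.

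Vldlr (ENSMUSG00000024924, plus strand of chromosome 19, 27216484 to 27254231), the receptor for triglyceride-rich particles and for reelin, had 214, 257 and 225 counts in Con and 156, 115 and 105 in D-gal. Normalized values were 207.8 ± 20.4 in Con and 142.4 ± 28.3 in D-gal (SD, n = 3). D-gal replicate 1, at 175.1, lay close to Con replicate 1, at 186.5, and the other D-gal libraries, at 125.6 and 126.5, lay well below. The log2 fold change was -0.54 (SE 0.15), from -0.72 to -0.46 with each library left out, and negative in all alternatives. The call was lost without Con replicate 2 (-0.53) or 3 (-0.48), without D-gal replicate 2 (-0.46) or 3 (-0.47), with the replicate number as a block (-0.55) and with limma on log2(FPKM + 0.1) (-0.46).

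Lrp8 (ENSMUSG00000028613, plus strand of chromosome 4, 107802261 to 107876840), a receptor for ApoE, reelin and selenoprotein P, had 358, 426 and 299 counts in Con and 290, 279 and 229 in D-gal. Normalized values were 320.5 ± 24.0 in Con and 302 ± 24.9 in D-gal (SD, n = 3), and the groups overlapped. On the log2 scale the difference was -0.09 (SE 0.09), between -0.14 and -0.02 with each library left out. Per length, its FPKM of 1.33 in Con and 1.28 in D-gal was above that of Vldlr in both groups.

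Abca1 (ENSMUSG00000015243, minus strand of chromosome 4, 53030787 to 53159895) was the 1 gene of the 8 with a higher level under D-gal that passed the threshold. Its counts were 1116, 1355 and 1029 in Con and 1134, 1142 and 1049 in D-gal, which look alike until the smaller D-gal libraries are taken into account. Normalized values were 972.5, 1106 and 1039 in Con and 1273, 1247 and 1264 in D-gal, so that every D-gal library was above every Con library. The means were 1039 ± 66.6 and 1261 ± 13.0 (SD, n = 3), 1.21-fold higher under D-gal. The log2 fold change was 0.28 (SE 0.06), from 0.23 to 0.33 with each library left out. The Con libraries varied by 6.41%, above the 2.93% of counting error alone, and the D-gal libraries by 1.03%, below the 3.0% of counting error alone.

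**Figure D2:**
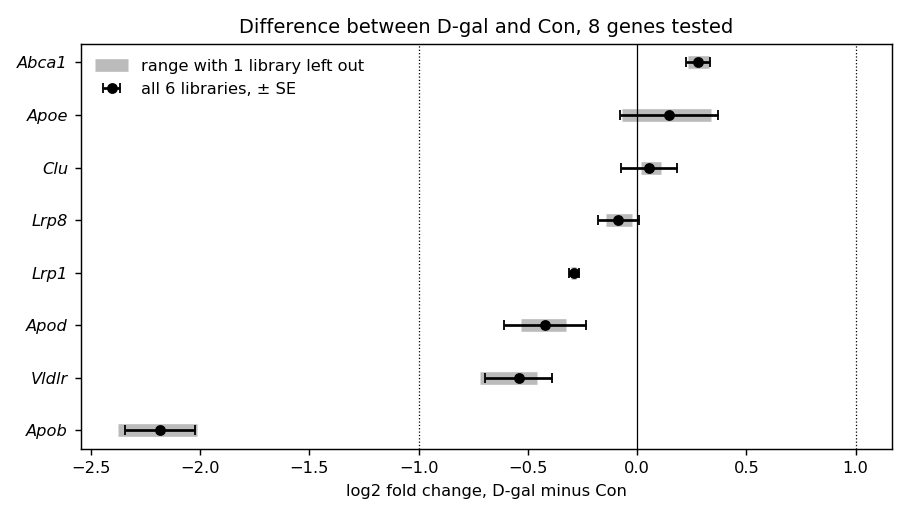
Log2 fold change of D-gal minus Con (horizontal axis) for the 8 genes tested, with points and bars for the estimate ± SE from all 6 libraries and grey bars for the range when each library is left out in turn. Apob, at -2.18, lies beyond the dotted line at -1, while the 7 other genes lie between -0.54 and 0.28 and the grey bar of Apoe crosses 0.

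Levels were compared between genes only per length, on the FPKM scale. In Con the order of the deposited FPKM was Lrp1 (169.7 ± 3.10), Abca1 (5.79 ± 0.365), Apob (1.57 ± 0.095), Lrp8 (1.33 ± 0.10), Vldlr (0.856 ± 0.082), Clu (0.827 ± 0.040), Apod (0.662 ± 0.092), Apoe (0.533 ± 0.041) and Apoc1 (0.205 ± 0.074; SD, n = 3). Neighbours overlapped between Vldlr and Clu and between Apod and Apoe. In D-gal, Lrp1 (142.3 ± 2.73) and Abca1 (7.19 ± 0.053) were again first, followed by Lrp8 (1.28 ± 0.102) and Clu (0.880 ± 0.053). Apoe (0.606 ± 0.172), Vldlr (0.600 ± 0.117) and Apod (0.505 ± 0.039) overlapped one another. Apob (0.354 ± 0.089), which followed Abca1 in Con, was last by mean in D-gal apart from Apoc1, which was listed at 0. Its highest D-gal library (0.442) lay just above the lowest of Apoe (0.437), so these 2 genes also overlapped. Lrp1 ranked 198 by mean FPKM among the genes tested, Abca1 lay above 57.0% of them, and the 6 other tested genes lay above 12.4% to 22.3% of them.

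The gene length behind the FPKM values changed part of this order. The deposited length of Apoe was 5592 bases, whereas its annotated exons together cover 2138 bases. With the covered exon length, the mean of Apoe was 1.39 ± 0.106 in Con and 1.59 ± 0.449 in D-gal (SD, n = 3). These means were above those of Clu (1.36 ± 0.066 and 1.44 ± 0.088), Vldlr (1.21 ± 0.116 and 0.852 ± 0.166) and Apod (1.12 and 0.858). Within the SD, Apoe overlapped Clu in both groups and Vldlr in Con. Apob was then at 1.99 in Con and 0.448 in D-gal, and Lrp1 at 200.4 and 168. Lrp1, Abca1, Apob and Lrp8 were still the 4 highest in Con, in that order.

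**Figure D3:**
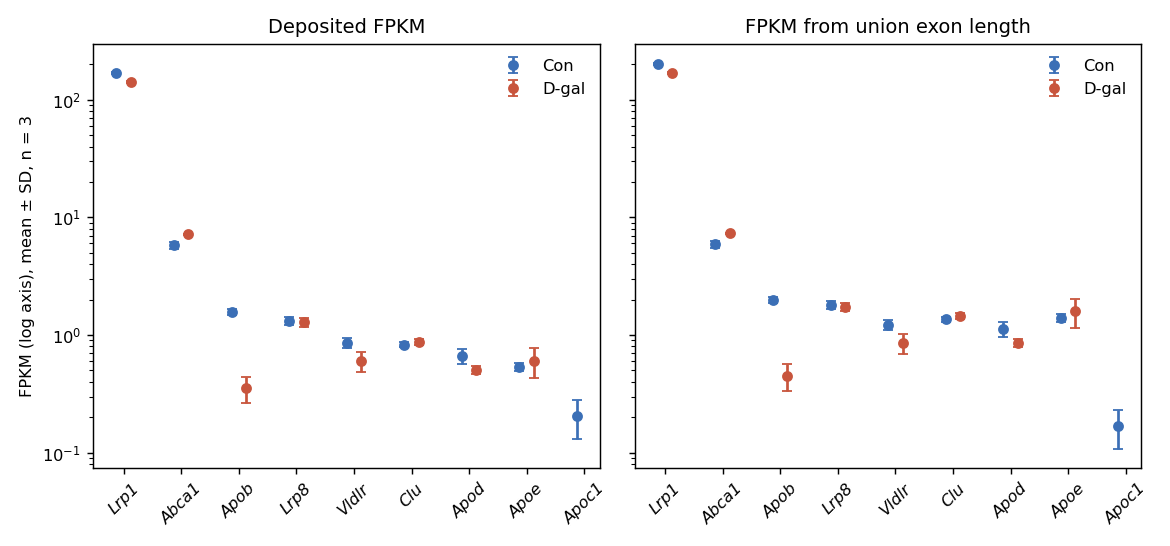
Mean FPKM ± SD (n = 3, log axis) of the 9 genes in Con and D-gal, from the deposited values on the left and from the length covered by the annotated exons on the right. Lrp1 lies above 100 in both panels, Apob drops from 1.57 to 0.354 on the left, and Apoe moves up on the right to 1.39 and 1.59. Apoc1 in D-gal is at 0 and is not drawn.

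The other genes of the pathway were read from 10 lists with 139 genes in the table, of which 106 were tested. At an adjusted p-value under 0.05 in edgeR, 18 were higher in D-gal (17.0%, beside 16.9% of all genes tested), 34 lower (32.1%, beside 17.8%) and 54 not called. With the log2 fold change criterion as well, 2 of the 106 were higher, beside 2.37% of all genes tested, and 3 of the 106 lower, beside 1.83%. Their median log2 fold change was -0.07. The lists overlap, and were written with results of these data known.

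Of 18 other apolipoprotein genes, 7 were at 0 in every library, among them Apoc2, Apoc3 and Apoc4, which encode the other ApoC proteins. Of the 6 tested, 1 was higher (16.7%, beside 16.9% of all genes tested), 2 lower (33.3%, beside 17.8%) and 3 not called. Saa3, an acute-phase apolipoprotein of HDL made outside the liver, had 156, 148 and 92 counts in Con and 15, 12 and 19 in D-gal, and its groups were far apart. Its log2 fold change was -2.73 (SE 0.24, adjusted p = 1.22e-04 in edgeR), beside -2.18 for Apob. Among the intracellular ApoL proteins, Apol6 fell by 0.71 on the log2 scale (SE 0.13, adjusted p = 0.00401 in edgeR) and Apol9b rose by 0.35 (SE 0.08, adjusted p = 0.0118 in edgeR).

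In the LDL receptor family beyond the 3 receptors above, 11 of 12 genes were tested. Of these, 3 were higher (27.3%, beside 16.9% of all genes tested), 2 lower (18.2%, beside 17.8%) and 6 not called. Lrp2 (megalin), an endocytic receptor of epithelia related to LRP1, had 78, 97 and 65 counts in Con and 171, 154 and 143 in D-gal. It rose by 1.32 on the log2 scale (SE 0.12, adjusted p = 1.61e-04 in edgeR), opposite in sign to Lrp1, but its FPKM stayed below 0.661 in every library. Lrp11 rose by 0.64 (adjusted p = 0.00111 in edgeR) and Lrp10 by 0.18 (adjusted p = 0.00973 in edgeR). Among 9 scavenger and other receptors tested, 3 were higher (33.3%, beside 16.9% of all genes), 3 lower (33.3%, beside 17.8%) and 3 not called. Scara5, a ferritin receptor of mesenchymal cells, fell by 1.47 (262, 326 and 249 counts against 87, 59 and 90, adjusted p = 5.3e-04 in edgeR). Scara3 fell by 0.48 (adjusted p = 5.67e-04) and Scarb2, a lysosomal membrane protein, by 0.36 (adjusted p = 6.18e-04), both in edgeR.

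Of 9 tested ligands of the receptors that are not apolipoproteins, 6 were lower (66.7%, beside 17.8% of all genes tested), 1 was higher (11.1%, beside 16.9%) and 2 were not called. Plau, the protease urokinase that LRP1 clears, fell by 0.92 in log2 units (adjusted p = 1.19e-04 in edgeR), and Sepp1, the selenoprotein P ligand of Lrp8, fell by 0.35 (adjusted p = 5.21e-04 in edgeR). Reelin, the ligand of Vldlr and Lrp8 in brain, had 1, 0 and 0 counts of Reln in Con and 1, 9 and 6 in D-gal, under the filter. For receptor turnover, 10 adaptors and regulators were tested. Of these, 2 were higher (20%, beside 16.9% of all genes tested), 1 lower (10%, beside 17.8%) and 7 not called. Gulp1, an adaptor that binds the tail of LRP1, rose by 0.57 (adjusted p = 5.38e-04 in edgeR), and Lrpap1, the chaperone of the receptors, fell by 0.32 (adjusted p = 0.0182 in edgeR).

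Beside Abca1, 17 genes of cholesterol export and storage were tested. Of these, 4 were higher (23.5%, beside 16.9% of all genes tested), 5 lower (29.4%, beside 17.8%) and 8 not called. Abcg1, which works with ABCA1 in loading HDL, had 0 to 7 counts and was not tested. Soat1, which esterifies cholesterol for storage, fell by 0.44 (adjusted p = 1.36e-04), and Npc2, which carries cholesterol out of lysosomes, by 0.39 (adjusted p = 3.15e-04), both in edgeR. Of the relatives of Abca1, Abca3 rose by 0.62 (adjusted p = 7.78e-04 in edgeR), and Abca8b had 31, 62 and 46 counts in Con and 13, 10 and 12 in D-gal, a fall by 1.63 (SE 0.32, adjusted p = 0.00587 in edgeR). For lipoprotein assembly and lipolysis, 16 genes were tested. Of these, 1 was higher (6.25%, beside 16.9% of all genes tested), 6 lower (37.5%, beside 17.8%) and 9 not called. With an unadjusted p under 0.05 in edgeR, 6 were higher and 7 lower, and the median log2 fold change of the list was -0.04. Lpl, the lipase whose remnants the receptors take up, fell by 0.45 (adjusted p = 6.37e-04), and its inhibitor Angptl4 by 0.39 (adjusted p = 5.88e-04), while Dgat1, which makes triglyceride, rose by 0.35 (adjusted p = 0.00805), all in edgeR.

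Abca1 is a known target of the sterol-sensing receptor LXR. Of 9 other LXR target genes tested, 2 were higher (22.2%, beside 16.9% of all genes), 1 lower (11.1%, beside 17.8%) and 6 not called. Scd1 rose by 0.21 (adjusted p = 0.00101) and Scd2 by 0.12 (adjusted p = 0.00661) in edgeR, whereas Srebf1 fell by 0.16 (adjusted p = 0.0305 in edgeR), a call lost in 9 of 14 alternatives. Mylip, an LXR target that degrades Vldlr and Lrp8, had a log2 fold change of -0.08 and was not called. Of 9 regulators of sterol sensing, 0 were higher (beside 16.9% of all genes), 4 lower (44.4%, beside 17.8%) and 5 not called. At an unadjusted p under 0.05 in edgeR, 1 was higher and 5 lower. Srebf2 fell by 0.32 (adjusted p = 2.02e-04), Rxra, the partner of LXR, by 0.26 (adjusted p = 0.00203) and Insig1 by 0.23 (adjusted p = 0.0128), all in edgeR. SREBP2 is the regulator that induces uptake and synthesis of cholesterol. Of its 17 targets, 2 were higher (11.8%, beside 16.9% of all genes tested), 6 lower (35.3%, beside 17.8%) and 9 not called. Nsdhl rose by 0.47 (adjusted p = 4.93e-04), Sqle fell by 0.26 (adjusted p = 0.00107) and Idi1 fell by 0.43 (adjusted p = 0.00213), all in edgeR.

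**Figure D4:**
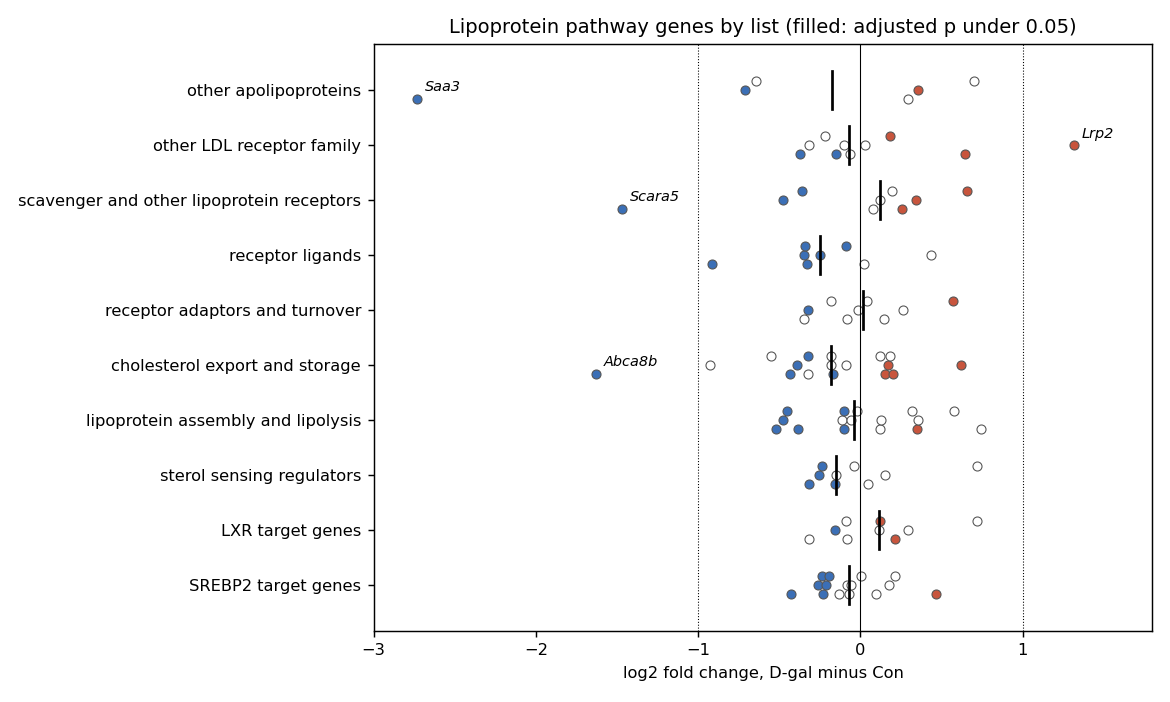
Log2 fold change of D-gal minus Con (horizontal axis) for the tested genes of the 10 pathway lists, 1 point a gene, filled where the adjusted p-value was under 0.05 (blue lower, red higher) and open otherwise, with a vertical bar at each list's median. Saa3, Scara5 and Abca8b lie beyond the dotted line at -1 and Lrp2 beyond that at 1, and the medians of the lists lie between -0.25 and 0.12. Genes not reported here are not drawn, but count in the medians.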

How the data were processed

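The authors deposited 1 table with a count of reads for each gene and library, without normalization, and an FPKM value, which divides the count by gene length and library total. Per the labels, libraries came from total RNA with an RNA-seq kit, whereas the methods name a small RNA kit. Reads were quality checked and trimmed, and the submitters' processing notes name HISAT2 2.0.4. The counting tool, its use of strand and the annotation are not given in the sources used here, and coordinates are those of the table (GRCm38). All replicate pairs differed beyond counting noise (6.00 to 9.42 for chi-square over its degrees of freedom), so each library counted as 1 sample. Same-numbered samples did not pair.

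Counts of 3 Con and 3 D-gal libraries were compared with edgeR 4.0.16 in R 4.3.3 (TMM, filterByExpr, quasi-likelihood test, Benjamini-Hochberg adjustment), without covariates, and the scripts were tested on simulated data. Normalized counts are scaled to the mean effective library size, and the SE was taken as the size of the log2 fold change over the root of edgeR's F statistic. The members and gene lists were chosen with earlier results of these data known. Named were the 9 genes, every list gene past both thresholds and the 3 of each list with the smallest p, apart from some that are not reported here. Fap, Lum, Mttp, Apobec1, A1cf, Rbm47, Mylip, Reln, Abcg1, Apoc2, Apoc3, Apoc4 and the marker genes were named for their known roles after their values were seen. Alternatives were DESeq2 1.42.0, RLE size factors, other filters, the replicate number as a block, each library left out, and limma 3.58.1 on log2(FPKM + 1) and log2(FPKM + 0.1). Thinned counts (seed 7) were added after the data had been seen. GENCODE M21 gave exons for 34267 of the gene identifiers.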

Additional observations from a re-analysis of the deposited data

How the results depend on the processing

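For the 8 genes tested, 106 values from the alternatives were on the side of the threshold reported above and 6 were not. All 6 were Vldlr, which missed it with the replicate number as a block (log2 fold change -0.55), with limma on log2(FPKM + 0.1), and without Con replicate 2 or 3 or D-gal replicate 2 or 3 (-0.53 to -0.46). Without a call in any fit, Apoe changed sign without D-gal replicate 3 (-0.07) and Clu with thinned counts (-0.14). The 8 genes were chosen on this contrast, and the alternatives reuse its libraries. Their counts therefore describe the processing and add no support for a difference. Of the named pathway genes, 424 values were on the reported side and 10 were not, 9 of Srebf1 and 1 of Lrpap1.

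The 564 genes called at both thresholds became 120 with limma on log2(FPKM + 1), a scale that understates changes of low genes (-0.93 for Apob), 4661 with the adjusted p alone, 530 with the replicate block, and 491 to 572 with 1 library left out. With the fold change criterion, 18 higher and 34 lower pathway genes became 2 and 3. They were 17 and 28 with the replicate block, and 16 to 18 and 27 to 32 with 1 library left out. Samples with the same number did not deviate together (correlations -0.0133, -0.00403 and 0.0277), and the block changed no other call of the 9 genes. Covered exon length moved the Con FPKM of 7 genes by more than the spread between replicates, and left 2 within it (Apoc1 and Abca1). Depth limits Apoc1, at 7 counts in all, and the precision of Apoe, Apod and Clu, with under 100 counts in every library.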
